A study of Mus musculus with 13 samples.

Results

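Gbp2, Aoc3, Serpinb1a, Scara5 and Pcdh8 are 5 mouse genes selected on their measured values: each was picked for a high signal in the embryonic bladder against another region of the lower urinary tract. They carry 9 of the 45101 probe sets of the Affymetrix MOE430 array, a chip on which each gene is read by 1 or more sets of short oligonucleotide probes. All 9 probe sets passed the filter on dim signal, which kept 33125, and the 5 genes are among the 15019 genes tested. Because bladder signal chose the genes, their differences between regions are given as descriptions, with a standard error (SE) and no test. Other readouts did not enter the choice of the 5: the stage of the embryos, which was tested, and the genes related to each of the 5 by family or pathway, which were counted. The lists of related genes were drawn up with earlier results of these data known, so their counts are not independent of the data.

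The arrays held RNA of the bladder (3 arrays), the urethra (3), the urogenital sinus (4) and a newborn reference (3). The region samples were unpooled tissue of embryonic day 14 embryos of unknown sex, from FVB/N dams and sires transgenic for SMGA/EGFP, in which the promoter of the smooth muscle gamma-actin gene Actg2 drives a green fluorescent protein. Bladder and urethra were dissected as fluorescent tissue and the sinus as the dark stretch between them, so the smooth muscle content of the regions was set by the dissection. Theiler stage 22, the later one, is represented by the arrays numbered 6, 7 and 8, and Theiler stage 21 by those numbered 1 and 2. The tissue of bladder replicate 2 was labelled primitive bladder. All 3 urethra arrays carry a title form (JS, a date, a number and Urethra) that no bladder or sinus array has. Differences between the urethra and the other regions thus cannot be told apart from a difference of title form. The arrays titled JS_number are bladder replicate 8, sinus replicate 7 and reference replicate 2, and leaving them out does not change this. The labels do not say what a title form marks. The reference was RNA of whole wild-type FVB/N newborns at postnatal day 1, pooled from 4 males and 4 females. The labels do not say which region samples came from separate embryos, so the spread behind each p-value may be technical, and it is that of these samples alone; the number of arrays limits the precision.

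The embryonic bladder is a sac of endoderm-derived epithelium wrapped in mesenchyme, in which smooth muscle, vessels and connective tissue form. The 5 genes are better known from other settings. Gbp2 encodes a guanylate-binding protein, a GTPase that interferon switches on for defence inside cells. Aoc3 encodes an amine oxidase of the cell surface, found on endothelium, smooth muscle and fat cells, which oxidises primary amines and helps leukocytes adhere to vessels. Serpinb1a encodes a clade B serpin, an inhibitor of the serine proteases that neutrophils carry. Scara5 encodes a class A scavenger receptor, described in mouse as a receptor for ferritin, the iron storage protein. Pcdh8 encodes a protocadherin, a cell adhesion protein best known from the paraxial mesoderm, where it takes part in the formation of somite borders.

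The tissue labels were checked against marker genes. Actg2 intensity was 11642 to 16037 in bladder, 7597 to 12883 in urethra and 253 to 1746 in urogenital sinus. Uroplakin genes of the urothelium were measured in all 3 regions, with Upk1b at a mean log2 intensity of 13.07 in bladder, 11.82 in urethra and 11.65 in sinus. Upk1b is also on the list of mesothelium markers used below. Over 10 urothelial markers the median log2 difference was -0.60 for bladder minus urethra, with 4 above 0, and -0.03 for bladder minus sinus, with 5 above 0. Array medians were 142 to 238 in bladder, 221 to 378 in urethra, 259 to 389 in sinus and 278 to 455 in the reference. Sinus replicate 1 stood apart from the other sinus arrays, with a mean correlation of 0.889 to its group, and carried much embryonic globin (Hbb-bh1 at 15.04 on the log2 scale, with urethra replicate 1 at 14.51 and the other region arrays between 7.41 and 10.51). Bladder replicate 8 had the lowest median and a log2 ratio of 4.04 between the 3' and 5' actin probe sets, a measure of shortened RNA, against 1.21 to 3.42 on the other region arrays.

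Values below are the deposited linear intensities, or log2 intensities with a floor at 50.23 (5.65 on the log2 scale). An intensity of 167.76, the level of the filter (7.39 on the log2 scale), was used as the level of detection. Where no array of a group reached it, the group's fold was computed against that level, is a lower bound and is written "at least".

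Gbp2 was the gene of the 5 in which the bladder lay above all 3 other groups. On the probe set that stands for the gene, 1435906_x_at, its intensity was 5034, 3103 and 3748 on the 3 bladder arrays (replicates 2, 6 and 8). It was 289, 115 and 81.8 on the urethra arrays (replicates 1, 2 and 6), 543, 74.0, 146 and 87.9 on the sinus arrays (replicates 1, 2, 6 and 7), and 1456, 815 and 481 in the newborn reference. Every bladder array thus lay above every array of the other 3 groups, and the highest sinus value was that of replicate 1. The log2 means were 11.92 ± 0.35 in bladder (SD, n = 3), 7.13 ± 0.94 in urethra (n = 3), 7.24 ± 1.30 in sinus (n = 4) and 9.70 ± 0.80 in the reference (n = 3). The difference in mean log2 intensity was 4.80 (SE 0.79) for bladder minus urethra and 4.69 (SE 0.73) for bladder minus sinus, the 5th and 2nd largest among the 15019 genes. Bladder minus reference was 2.23.

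The second Gbp2 probe set, 1418240_at, gave the same picture. Its intensity was 1416, 1119 and 1319 in bladder, 61.1 to 140 in urethra, 23.9 to 142 in sinus and 157 to 686 in the reference. No urethra or sinus array reached 167.76, so bladder stood at least 7.62-fold above each. The log2 differences were 3.77 for bladder minus urethra and 3.95 for bladder minus sinus. The suffix of 1435906_x_at marks probes that may also bind related transcripts, which is not so for 1418240_at.

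Guanylate-binding protein genes are textbook targets of the interferon-stimulated response element, so the stretch around the start of Gbp2 is shown beside those of 2 neighbours on chromosome 3, Gbp3 and Gbp7, that are described below. The sequences are from RefSeq for GRCm38.p6, 250 bases before to 50 after each start, on the plus strand (chr3:142620413-142620712 for Gbp2, chr3:142559794-142560093 for Gbp3 and chr3:142530086-142530385 for Gbp7). Capitals mark matches to the core of the element, GAAA, any 2 bases and GAAA again, which on the strand shown reads TTTC, 2 bases and TTTC.
Gbp2: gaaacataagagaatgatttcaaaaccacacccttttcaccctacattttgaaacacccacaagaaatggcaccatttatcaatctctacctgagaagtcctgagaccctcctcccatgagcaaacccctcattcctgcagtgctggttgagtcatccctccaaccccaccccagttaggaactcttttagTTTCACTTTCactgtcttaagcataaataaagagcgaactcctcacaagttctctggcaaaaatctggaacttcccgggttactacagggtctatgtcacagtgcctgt
Gbp3: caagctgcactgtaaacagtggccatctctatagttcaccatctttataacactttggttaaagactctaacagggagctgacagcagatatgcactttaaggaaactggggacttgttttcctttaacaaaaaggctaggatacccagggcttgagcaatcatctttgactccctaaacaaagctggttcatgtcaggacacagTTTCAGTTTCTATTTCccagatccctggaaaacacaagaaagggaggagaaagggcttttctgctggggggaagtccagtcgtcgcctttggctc
Gbp7: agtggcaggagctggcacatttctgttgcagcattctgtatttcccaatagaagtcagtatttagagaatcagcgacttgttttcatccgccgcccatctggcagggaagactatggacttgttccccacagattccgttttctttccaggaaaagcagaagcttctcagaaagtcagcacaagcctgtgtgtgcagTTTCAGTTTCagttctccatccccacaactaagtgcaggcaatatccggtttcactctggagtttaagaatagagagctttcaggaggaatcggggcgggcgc
All 3 matches lie close upstream of the start, beginning 59 bases before it in Gbp2, 45 in Gbp3 and 53 in Gbp7. Gbp3 holds 2 overlapping matches there, and a second annotated Gbp3 start holds none. The motif, searched on both strands, occurred in 1131 of 32851 promoters of this length (3.44%) and in 13 of 25 interferon-list genes with a promoter in the table (52.0%). The first share counts promoters, while the second counts genes with a match in any of their promoters, so the 2 shares differ in unit. A match describes the letters and not a bound site. Among the 5 genes the promoter table also held Pcdh8, whose window had no match.

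Among other interferon-response genes few calls were made. The list held the guanylate-binding proteins, immunity-related GTPases, interferon receptors, STAT and IRF factors and antigen-processing genes, and 24 of its members were tested. With limma, 1 was called higher in bladder than in urethra and 0 lower. In all, 1.71% of genes were called higher and 2.62% lower in that comparison. Against the sinus 0 of 24 were called, with 0.812% of all genes called higher and 1.73% lower in bladder. Over all genes, 257 were called higher and 394 lower in bladder than in urethra (219 and 169 with quantile normalization, 176 and 58 with arrays centred on their medians), and 122 higher and 260 lower than in sinus (97 and 98, and 138 and 35). The list's median log2 difference was 0.22 for bladder minus urethra, against -0.25 over all genes tested, and 0.03 for bladder minus sinus, against -0.19.

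The gene called was Gbp3, a close relative of Gbp2. Its intensity was 1033, 1200 and 632 in bladder against 71.1, 57.8 and 200 in urethra, a log2 difference of 3.30 (SE 0.78, adjusted p = 0.0473). In the sinus it was 56.6 on replicate 1 and 264 to 503 on the others. The call of Gbp3 held in 1 of the 10 fits that left out an array, the one without sinus replicate 1, and adjusted p reached 0.163 without bladder replicate 6. Gbp7 was at 1343 to 2305 in bladder and 272 to 1001 in sinus, without overlap, at a log2 difference of 2.07 (adjusted p = 0.0854). Gbp6 was at 1044 to 1795 in bladder and 30.3 to 474 in sinus, a log2 difference of 2.53 (adjusted p = 0.106). A second probe set gave smaller bladder minus sinus differences for both, 0.75 for Gbp7 and 1.98 for Gbp6. Over the whole list, Gbp3, Gbp6 and Gbp7 included, 15 of 24 members were above 0 for bladder minus urethra and 13 of 24 for bladder minus sinus. Ifit1, which binds viral RNA, had a mean log2 intensity of 5.83 in bladder, 7.11 in urethra and 6.90 in sinus, while Ifit3, of the same family, had 7.43, 6.88 and 6.64 in that order. Among the transcription factors of the pathway, Irf1 lay at 10.73 in bladder, 10.49 in urethra and 10.68 in sinus. Stat2 lay at 7.33, 6.08 and 7.64 in the same order, and Irf9 at 9.16, 9.49 and 9.78. None of these genes was called. A second Stat2 probe set gave -1.10 for bladder minus urethra and -1.36 for bladder minus sinus.

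**Figure D1:**
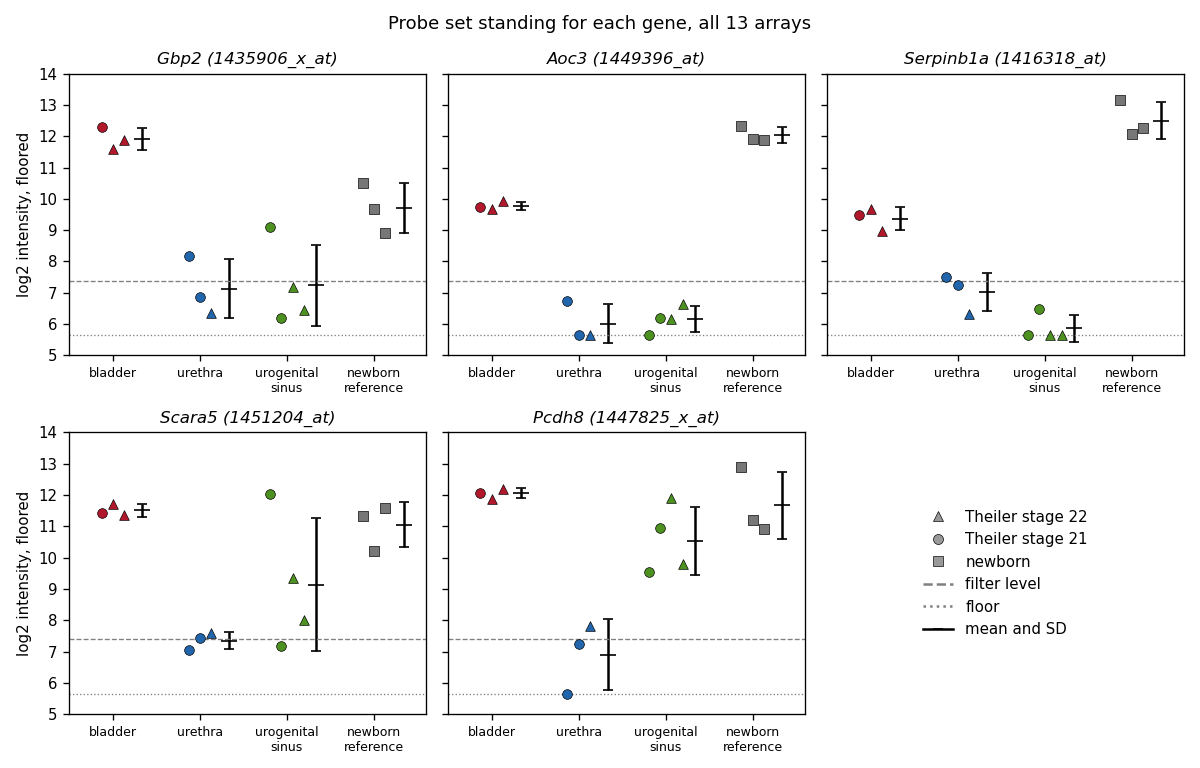
Log2 intensity (floored) of the probe set standing for each of the 5 genes on every array, by group; circles and triangles are Theiler stage 21 and 22 embryos, squares are newborn reference arrays, bars are the mean and SD. The 3 bladder arrays lie close together in every panel and above all urethra arrays; sinus replicate 1 in Scara5 and sinus replicate 6 in Pcdh8 reach the bladder level, and the reference is highest for Aoc3 and Serpinb1a.

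Aoc3 was on in the bladder, near or below the detection level in the other regions, and highest in the newborn. Its 1 probe set, 1449396_at, had an intensity of 857, 811 and 969 in bladder. It had 107, 49.2 and 38.5 in urethra, 15.7, 74.0, 71.3 and 101 in sinus, and 5177, 3813 and 3761 in the reference. Of the 7 urethra and sinus arrays none reached 167.76, and bladder stood at least 5.23-fold above each of these regions. The log2 means were 9.78 ± 0.13 in bladder (SD, n = 3), 6.01 ± 0.63 in urethra, 6.17 ± 0.41 in sinus and 12.04 ± 0.26 in the reference. The log2 difference was 3.76 (SE 0.38) for bladder minus urethra and 3.61 (SE 0.35) for bladder minus sinus, ranks 16 and 8 of 15019. Bladder minus reference was -2.26, and urethra and sinus lay at least 25.1-fold below the reference.

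Among other amine oxidases no member was called higher in bladder. The list of 9 tested genes holds copper amine oxidases, the monoamine oxidases, the lysyl oxidases that crosslink collagen and elastin, and polyamine enzymes. None was called in bladder against sinus. Against the urethra, where 2.62% of all genes were called lower in bladder, Smox, which oxidises spermine, was called lower. Its log2 difference was -1.92 (SE 0.27, adjusted p = 0.00773), and the call held in 10 of 10 fits that left out an array. The list's medians were -0.02 for bladder minus urethra and -0.03 for bladder minus sinus. Aoc1, the diamine oxidase, had mean log2 intensities of 6.39 in bladder, 7.78 in urethra and 7.53 in sinus. Maoa, a monoamine oxidase of mitochondria, lay at 12.83, 12.84 and 12.86 in bladder, urethra and sinus. Lox lay at 14.67, 14.82 and 14.06 in the same order.

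Serpinb1a followed Aoc3 closely on its main probe set. The intensity of 1416318_at was 718, 813 and 498 in bladder, 181, 153 and 80.3 in urethra, 6.52, 90.1, 26.7 and 14.9 in sinus, and 9183, 4283 and 4908 in the reference. The bladder arrays lay above all urethra and sinus arrays and below all reference arrays. The log2 means were 9.37 ± 0.37 in bladder (SD, n = 3), 7.03 ± 0.62 in urethra, 5.86 ± 0.42 in sinus and 12.50 ± 0.59 in the reference. The log2 difference was 2.34 (SE 0.40) for bladder minus urethra, rank 113, and 3.51 (SE 0.38) for bladder minus sinus, rank 9, where bladder stood at least 3.95-fold above. Of the 4 sinus arrays, 3 were at the floor, so the size of this difference moves with the floor: it was 1.98 with the floor at the filter level and 4.91 with none. Bladder minus reference was -3.12.

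The other Serpinb1a probe set, 1448301_s_at, did not show the bladder signal. It lay at 61.9, 122 and 56.8 in bladder, 129, 71.6 and 5 in urethra and 5.27 to 56.3 in sinus, every one under 167.76, against 1435 to 1887 in the reference. The reference signal thus appears on both probe sets and the bladder signal on 1. Its suffix marks probes shared between transcripts.

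Among 11 other clade B serpins tested, 0 were called in bladder against urethra. Against the sinus 1 was called higher in bladder, as were 0.812% of all genes. This was Serpinb6b, a relative of the protease inhibitor Serpinb6a, at 533, 308 and 1404 in bladder and 14.8 to 95.6 in sinus. The bladder mean was 3.02 log2 units higher (SE 0.52, adjusted p = 0.0191). Its intensity was 94.6 to 218 in urethra and 1273 to 1662 in the reference, the same order of groups as for Serpinb1a. The call held in 7 of 10 fits that left out an array and was lost without bladder replicate 2 (adjusted p = 0.0841), sinus replicate 2 (0.0573) or sinus replicate 6 (0.0516). Serpinb9, an inhibitor of granzyme B, had a log2 difference of 1.51 for bladder minus sinus (adjusted p = 0.119). Serpinb1b, the nearest relative on the list, had mean log2 intensities of 6.39 in bladder, 5.95 in urethra and 6.37 in sinus. The list's median was 0.12 for bladder minus urethra and -0.19 for bladder minus sinus, the second equal to the median of all genes.

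The list of neutrophil genes, which holds serine proteases of the kind Serpinb1a inhibits (Elane, Ctsg, Prtn3) and other granule genes, had 0 of 9 members called in any comparison between regions. Their median log2 difference was -0.32 for bladder minus urethra and -0.35 for bladder minus sinus. Prtn3, the gene of proteinase 3, had a log2 difference of -2.39 for bladder minus urethra (adjusted p = 0.0913) and -1.98 for bladder minus sinus (adjusted p = 0.166), with a bladder mean of 5.68 near the floor. Ctsg lay at mean log2 intensities of 5.96 in bladder, 5.65 in urethra and 5.88 in sinus, and S100a8 at 5.98, 6.82 and 6.33. These means are under the detection level of 7.39, so little can be read from the absence of a call in genes this dim.

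Scara5 set the bladder apart from the urethra but not from every sinus array. On 1451204_at its intensity was 2732, 3392 and 2654 in bladder and 132, 171 and 194 in urethra. In the sinus it was 4183 on replicate 1 and 146, 650 and 256 on replicates 2, 6 and 7. It was 2582, 1198 and 3103 in the reference, which overlapped the bladder. The log2 means were 11.51 ± 0.19 in bladder (SD, n = 3), 7.35 ± 0.28 in urethra, 9.14 ± 2.12 in sinus and 11.05 ± 0.73 in the reference. The log2 difference was 4.15 (SE 1.07) for bladder minus urethra, rank 9, and 2.37 (SE 1.00) for bladder minus sinus, rank 56. Since the spread is pooled over the regions, the SE of 1.07 takes in the wide sinus spread. Without sinus replicate 1 the bladder minus sinus difference was 3.33 and the groups did not overlap.

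The second Scara5 probe set, 1431336_at, did not follow the first. It lay at 134, 126 and 75.0 in bladder, 47.0, 203 and 234 in urethra, 930, 121, 113 and 182 in sinus and 165 to 229 in the reference. Sinus replicate 1 was again the highest of its group. The log2 differences were -0.31 for bladder minus urethra and -1.02 for bladder minus sinus. None of the 3 bladder arrays reached 167.76 on it.

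**Figure D2:**
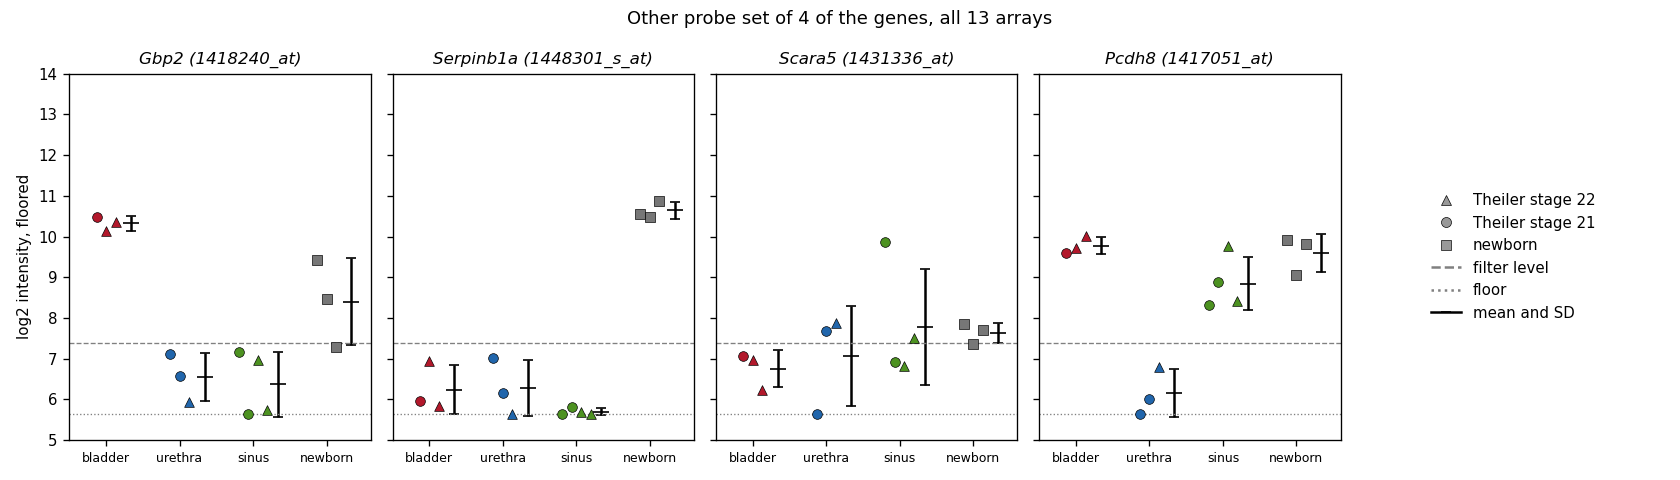
Log2 intensity (floored) of the second probe set of Gbp2, Serpinb1a, Scara5 and Pcdh8 on every array, with the symbols of the plot of the main probe sets. Gbp2 and Pcdh8 keep their bladder signal above the urethra, while on the Serpinb1a and Scara5 sets all bladder arrays lie under the dashed filter level at 7.39.

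The 4 other class A scavenger receptors tested (Msr1, Marco, Scara3 and Colec12) had 0 calls in either comparison. Msr1, a receptor of macrophages, had mean log2 intensities of 8.77 in bladder, 7.67 in urethra and 9.04 in sinus. Marco was at the floor in all 3 regions and at 8.75 in the reference. Scara3 lay at 10.79 in bladder, 12.16 in urethra and 11.55 in sinus.

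Of 13 iron genes tested, 0 were called against the sinus. Against the urethra 1 was called higher in bladder, as were 1.71% of all genes. This was Tfrc, the transferrin receptor, at 10856 to 12480 in bladder and 4687 to 6924 in urethra, a log2 difference of 0.98 (SE 0.23, adjusted p = 0.0467). Its 2 other probe sets gave 0.25 and -0.12, and the call held in 2 of 10 fits that left out an array, those without sinus replicate 1 or 7, with adjusted p up to 0.171. Fth1, the ferritin heavy chain, lay at mean log2 intensities of 15.22 in bladder, 15.42 in urethra and 15.13 in sinus. Slc40a1, which exports iron from cells, lay at 13.85 in bladder, 13.19 in urethra and 13.76 in sinus. The list's median was 0.13 for both comparisons.

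Of the 5 genes Pcdh8 had the largest difference between bladder and urethra. The intensity of 1447825_x_at was 4311, 3783 and 4715 in bladder and 18.0, 151 and 226 in urethra. In the sinus it spread widely, at 748, 1953, 3810 and 887 on replicates 1, 2, 6 and 7, and it was 7618, 2331 and 1941 in the reference. Bladder and sinus overlapped through sinus replicate 6, and bladder and reference overlapped too. The log2 means were 12.05 ± 0.16 in bladder (SD, n = 3), 6.90 ± 1.12 in urethra, 10.54 ± 1.09 in sinus and 11.67 ± 1.07 in the reference. The log2 difference was 5.15 (SE 0.72) for bladder minus urethra, rank 4, and 1.51 (SE 0.67) for bladder minus sinus, rank 252. For urethra minus sinus it was -3.64 (SE 0.67), rank 15015 of 15019, and all 3 urethra arrays lay below all 4 sinus arrays.

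The second Pcdh8 probe set, 1417051_at, agreed in direction. It lay at 778, 839 and 1037 in bladder, 10.6, 64.8 and 112 in urethra, 319, 473, 868 and 342 in sinus and 533 to 971 in the reference. Bladder stood at least 5.23-fold above urethra, and urethra at least 2.74-fold below sinus. The log2 difference was 3.62 for bladder minus urethra, 0.93 for bladder minus sinus and -2.69 for urethra minus sinus. On both probe sets sinus replicate 6 was the highest of the sinus arrays.

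Of the 10 other delta protocadherins tested, 0 were called higher in bladder and 1 was called lower than in sinus, as were 1.73% of all genes. Pcdh10 was called lower in bladder than in sinus, at 124, 294 and 244 in bladder and 923 to 2800 in sinus. Bladder minus sinus was -2.85 on the log2 scale (SE 0.60, adjusted p = 0.0409). Its 3 other probe sets gave -2.38, -2.22 and -2.43. The call held in 2 of 10 fits that left out an array, those without urethra replicate 1 or 2, with adjusted p up to 0.165. Pcdh11x had mean log2 intensities of 13.26 in bladder, 11.39 in urethra and 12.10 in sinus, and Pcdh18 lay at 13.19, 13.13 and 13.06 in the same order. For bladder minus urethra other probe sets gave 1.94 for Pcdh11x and -0.43 and -1.72 for Pcdh18.

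Pcdh8 is known with the genes that segment the paraxial mesoderm, of which 14 were tested. Of these, 1 was called higher in bladder than in urethra and 2 lower than in sinus. Over all genes the shares were 1.71% and 1.73%. Tbx18, a T-box factor of the anterior somite and of mesenchyme around developing ureters, was called higher in bladder than in urethra. It was at 3836, 5890 and 9986 in bladder, 44.1, 810 and 79.0 in urethra, 1199 to 6460 in sinus and 231 to 1807 in the reference, so that its sinus arrays, as for Pcdh8, lay above the urethra and overlapped the bladder. The log2 difference for bladder minus urethra was 5.37 (SE 0.97, adjusted p = 0.0196), and the second probe set gave 2.78. The call held in 5 of 10 fits that left out an array and was lost without any single bladder array or without urethra replicate 1 or 6, with adjusted p up to 0.0818. Hes7, an oscillating repressor of somite formation, was called lower in bladder than in sinus (-1.73, SE 0.34, adjusted p = 0.0347), with all bladder arrays at the floor. Its sinus intensity was only 95.9 to 212, with a log2 mean of 7.38, under the detection level of 7.39, so no fold is stated. The size of the difference ranged from -2.43 to -0.19 over 19 alternatives. Efnb2, an ephrin ligand, was called lower in bladder than in sinus too (-1.25, SE 0.27, adjusted p = 0.0430). Hes7 kept its call in 5 of 10 fits that left out an array, losing it without any bladder array or sinus replicate 2 or 6, and Efnb2 in 0 of 10. The list's median was -0.45 for bladder minus urethra and -0.36 for bladder minus sinus.

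**Figure D3:**
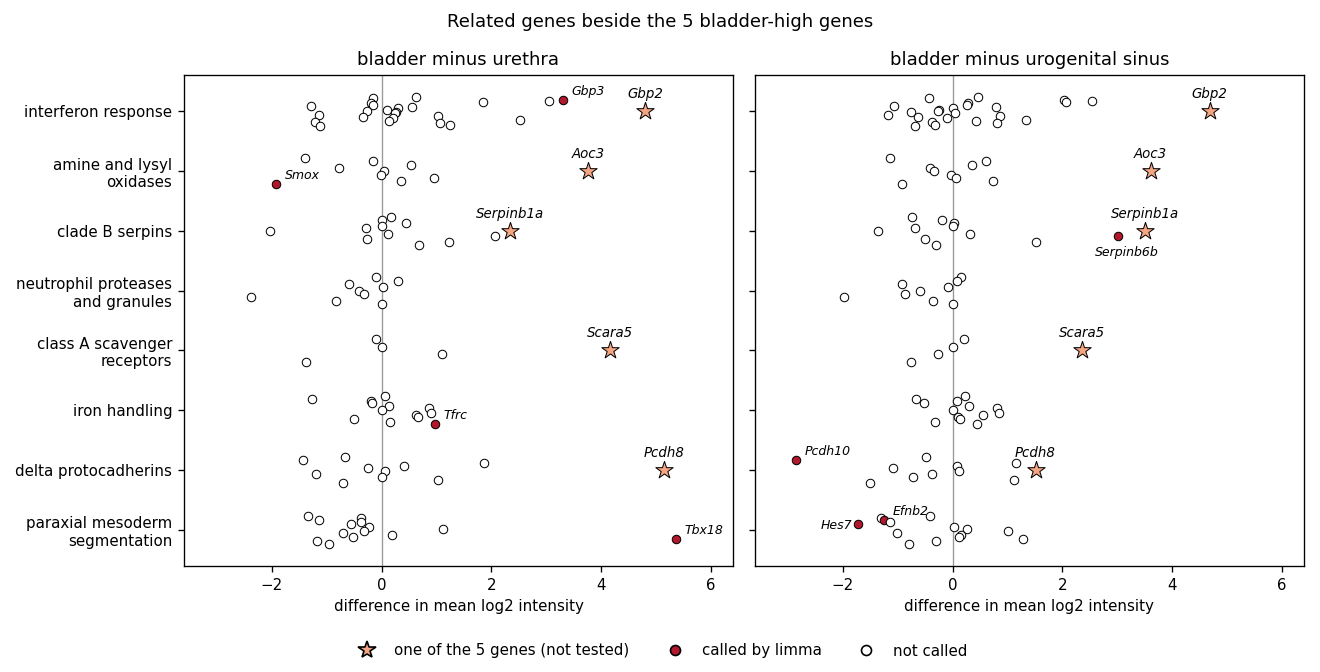
Difference in mean log2 intensity for bladder minus urethra (left) and bladder minus urogenital sinus (right) of the genes related to the 5 by family or pathway; stars are the 5 genes, which were chosen by bladder signal and not tested, filled circles are genes called by limma. Most relatives lie around 0 while the stars lie between 1.51 and 5.15, and the called relatives include genes above 0 (Gbp3, Serpinb6b, Tfrc, Tbx18) and below 0 (Smox, Pcdh10, Hes7, Efnb2).

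Set side by side, the 5 genes differed in which arrays lay apart. All 5 had every bladder array above every urethra array, as had 12.0% of the genes tested. Gbp2, Aoc3 and Serpinb1a also had every bladder array above every sinus array, as had 7.28% of genes. Without sinus replicate 1 Scara5 joined them, making 4 of 5, against 9.13% of genes. Since bladder signal chose the genes, nothing is read from these counts. Between urethra and sinus only Pcdh8 of the 5 had groups that did not overlap, with the urethra below, as had 3.32% of genes. In that comparison limma called 0.0133% of all genes.

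The newborn reference split the genes in another way. Gbp2 had all bladder arrays above all reference arrays, as had 19.7% of genes. Aoc3 and Serpinb1a had all bladder arrays below, as had 31.3%, and Scara5 and Pcdh8 overlapped the reference. The sinus lay below the reference without overlap in Aoc3 and Serpinb1a (18.7% of genes), and the urethra did so in all 5 (21.6% of genes). The reference holds every tissue of the newborn, so its level is an average over many cell types.

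The profiles over the 13 arrays were compared by the root mean square (RMS) difference of log2 values, each profile centred on its own mean, where a small value means a similar profile. Aoc3 and Serpinb1a were the most similar pair of the 5, at 0.71, and each was among the 3 nearest genes of the other in the whole table. The least similar pair was Serpinb1a and Pcdh8, at 2.44. Hsd17b2, a steroid dehydrogenase, was nearest to both Aoc3 (0.63) and Serpinb1a (0.62), where the median over all genes was 2.66 and 2.68. The nearest genes were picked for the smallest values, on arrays that include the bladder, so their place below the median is no test. Its intensity was 248 to 702 in bladder, 10.9 to 43.5 in urethra, 13.5 to 74.7 in sinus and 2973 to 7713 in the reference. Tfpi2, a protease inhibitor, was next for Aoc3 (0.70), and Myom1, a muscle protein, was the third for Serpinb1a (0.80).

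Gbp2 was most like Nr4a3, an orphan nuclear receptor (0.93), Cyp1b1, a cytochrome P450 enzyme (1.00), and the carboxylesterase Ces2g (1.03), where the median over all genes was 2.30. Nr4a3 lay at 4311 to 4474 in bladder, 175 to 333 in urethra, 223 to 525 in sinus and 1489 to 2911 in the reference. Scara5 was most like the aldo-keto reductase Akr1c14 (0.78), Cyp1b1 (0.90) and Fbln5, an elastic fibre protein (0.95). Of these 3, Cyp1b1 had 12335 to 14696 in bladder, 870 to 1114 in urethra and 958 to 3830 in sinus, with the highest sinus value on replicate 1, as for Scara5. Pcdh8 was most like Mal, a membrane protein of myelin and epithelia (0.99), the sodium channel Scn7a (1.03) and the collectin Colec11 (1.07). None of the nearest genes of Gbp2 came from the interferon list, and none of those of Pcdh8 was a protocadherin. With 3 nearest genes taken out of 15019, such an overlap would be rare in any case, so nothing is read from its absence.

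**Figure D4:**
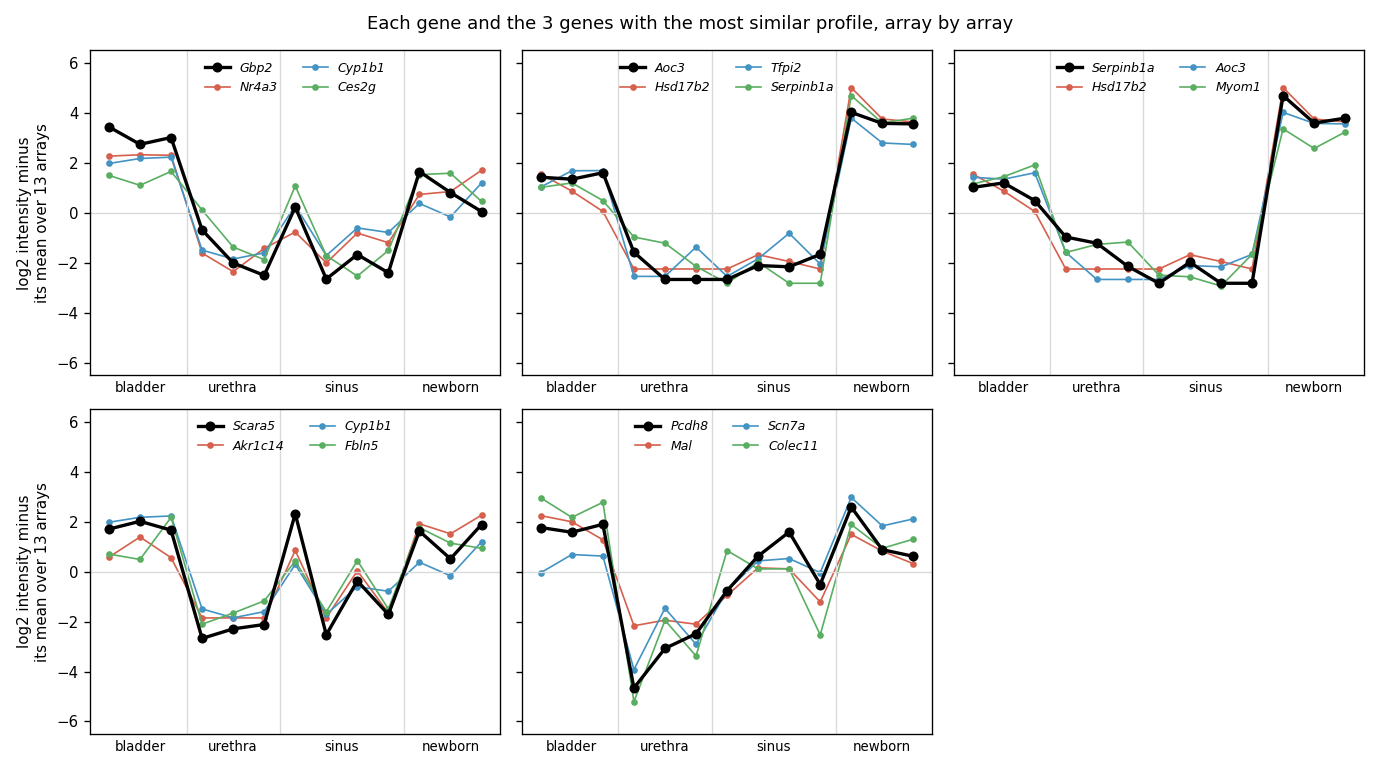
Log2 intensity minus its mean over the 13 arrays for each of the 5 genes (black) and the 3 genes with the most similar profile (colours), array by array and grouped by tissue. Aoc3, Serpinb1a and Hsd17b2 share high newborn, intermediate bladder and low urethra and sinus values; the peak of Scara5 on the first sinus array is shared in part by its 3 neighbours.

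The stage of the embryos was not used to choose the genes and was tested with region as a covariate. No gene of the 5 was called between Theiler stage 22 and 21. The log2 difference, stage 22 minus 21, was -0.84 for Gbp2 (95% interval -2.10 to 0.41, adjusted p = 0.368), 0.06 for Aoc3 (-0.64 to 0.77, adjusted p = 0.925) and -0.53 for Serpinb1a (-1.16 to 0.10, adjusted p = 0.269). It was -0.26 for Scara5 (-2.15 to 1.63, adjusted p = 0.877) and 0.64 for Pcdh8 (-0.55 to 1.84, adjusted p = 0.482). The intervals leave room for differences of 1 log2 unit or more in Gbp2, Serpinb1a, Scara5 and Pcdh8. Limma called 0 of 15019 genes (0%) here, while 3830 had an unadjusted p under 0.05 and the smallest adjusted p was 0.0770. The 5 genes' stage differences were not called in any of 20 alternative fits.

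Within the regions the stage values scattered. For Gbp2 the stage 22 arrays lay below the stage 21 arrays on average in bladder (-0.56), urethra (-1.16) and sinus (-0.82). For Pcdh8 the values were -0.03 in bladder, 1.38 in urethra and 0.60 in sinus. For Scara5 they were 0.13, 0.37 and -0.94 in the same order, with sinus replicate 1, a stage 21 array, the highest of its region. A test of whether the stage difference varied between regions gave an adjusted p of 1 for all 5 genes and called 0 genes.

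**Figure D5:**
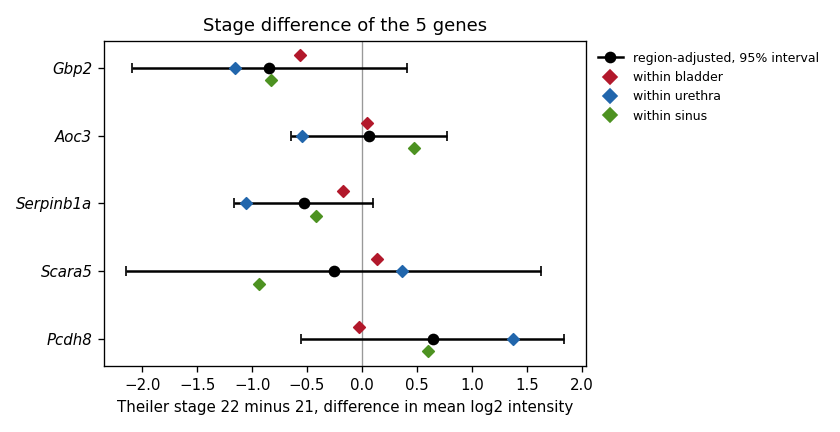
Difference in mean log2 intensity between Theiler stage 22 and stage 21 embryos for the 5 genes: black circles are the values adjusted for region with their 95% intervals, and coloured diamonds are the values within bladder, urethra and sinus. All 5 intervals include 0, and that of Scara5 is the widest, from -2.15 to 1.63.

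Marker genes of the cell types a dissected region can hold were read on the same arrays. In bulk tissue, fewer cells of a type and less RNA per cell cannot be told apart. Smooth muscle markers had 6 of 10 members called higher in bladder than in sinus, against 0.812% of all genes, and 0 of 10 called against urethra. Their summed intensity was 100266 to 134115 in bladder, 81194 to 136846 in urethra and 13839 to 58280 in sinus. The dissection by Actg2 fluorescence fixed that direction, so it is no independent result. For bladder minus urethra the markers lay on both sides of 0 (6 of 10 above), with Tagln at 2.09 (adjusted p = 0.0899) and Des at -1.69 (adjusted p = 0.143). A second Des probe set gave -0.37. The part of smooth muscle in the signal of the 5 genes was not tested.

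Of the connective tissue, vessel, macrophage, mesothelium and fat markers, 6 were called higher in bladder than in urethra, a comparison in which 1.71% of all genes were called higher. Lum, a proteoglycan of fibroblasts, was called in both comparisons, at 18222 to 26792 in bladder, 1638 to 2939 in urethra and 2558 to 9604 in sinus (log2 difference 3.30 and 2.26, adjusted p = 0.00700 and 0.0268). Against urethra the other calls were Kdr of endothelium (2.04), Mrc1 of macrophages (2.10), Upk3b of mesothelium (4.32), and Fabp4 (3.25) and Lpl (1.89), which fat cells share with vessels and macrophages. For bladder minus urethra other probe sets gave 4.31 for Upk3b, 2.14 and 0.28 for Fabp4 and 0.52 for Lpl. Of the 10 fits that left out an array, the call against urethra held in 10 for Lum, 8 for Fabp4, 7 for Lpl, 5 for Upk3b, 4 for Mrc1 and 2 for Kdr, and that of Lum against sinus in 5. These are 1 of 10 endothelial, 1 of 10 macrophage and leukocyte, 1 of 6 mesothelial, 1 of 9 fibroblast and 2 of 4 adipocyte markers. Over whole lists, the called genes included, bladder minus urethra was above 0 in 6 of 10 endothelial markers (median 0.08). It was above 0 in 4 of 10 macrophage and leukocyte markers (median -0.10) and 4 of 9 fibroblast markers (median 0). Esam of endothelium was at -1.29 and Cd68 of macrophages at -1.24, neither called.

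The summed intensity of each whole list was as follows. Endothelial markers summed to 24471 to 25875 in bladder, 17215 to 19639 in urethra and 13610 to 20646 in sinus. Macrophage and leukocyte markers summed to 13515 to 16669, 10217 to 16520 and 8854 to 24641 in the same order, and to 55804 to 70959 in the reference. Fibroblast markers summed to 89924 to 92026 in bladder, 56482 to 68556 in urethra and 48189 to 70644 in sinus, and adipocyte markers to 11929 to 16328, 2937 to 3415 and 3882 to 7762. Adipoq, the defining gene of fat cells, was at the floor on all 3 bladder arrays and all 3 urethra arrays, and the fibroblast marker Pi16 was at the floor on all 10 region arrays. Their part in the signal of Aoc3, Scara5 or the other genes was not tested.

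The genital tubercle and urethral plate list had 6 of 10 members called lower in bladder than in sinus and 8 of 10 lower than in urethra. Over all genes the shares called lower were 1.73% and 2.62%. Of 10 urothelial markers 1 was called, with 4 above 0 for bladder minus urethra and 5 for bladder minus sinus. Krt5, a keratin of basal epithelium, was called lower than in urethra (-5.06, adjusted p = 0.00174) and sinus (-3.39, adjusted p = 0.00908), and Elavl3, 1 of 7 tested neuronal and glial genes, lower than in sinus (-3.70, adjusted p = 0.0211, held in 5 of 10 fits that left out an array). A second Elavl3 probe set gave -0.67 for bladder minus sinus. Erythroid markers had 0 of 6 tested members called. The summed intensity was 38729 to 62950 in bladder, 61163 to 114992 in urethra and 45956 to 151683 in sinus.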

How the data were processed

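The authors deposited 1 table of probe set intensity values for 13 MOE430 arrays, each hybridised with RNA amplified in 2 rounds and labelled with biotin, per the labels' protocols. GCOS is named, with no version, per the submitters' processing notes; the sources used here give no other upstream step and no genome build. These deposited intensities are linear and share a 2% trimmed mean of 1500 on every array. Of 45101 probe sets, 64 are controls, 34945 have 1 gene symbol in the platform annotation, 932 several and 9160 none; only those with 1 symbol were named, and 34741 matched RefSeq GRCm38.p6 by Entrez identifier.

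From the deposited intensities log2 values were computed after a floor at the 20th percentile (50.23). Probe sets above the 40th percentile (167.76) on 3 or more arrays were kept, and each of 15019 genes was read on its brightest kept probe set (highest mean log2). Regions were compared with limma 3.58.1 (R 4.3.3, statmod 1.5.0) on the 10 region arrays, and stages with region as a covariate. P-values were adjusted over all genes by the Benjamini-Hochberg method, with calls at 0.05. The fit was tested on simulated data.

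The 5 genes and the 18 gene lists were chosen with earlier results of these data known. The genes named were every probe set of the 5 genes, the 3 most similar genes of each, up to 3 called members of each list, or up to 2 with the smallest p where none was called. List genes named with values beyond that rule (among them Gbp6, Gbp7, Ifit1, Ifit3, Irf1, Irf9, Stat2, Aoc1, Maoa, Lox, Serpinb1b, Serpinb9, Scara3, Marco, Fth1, Slc40a1, Pcdh11x, Pcdh18, Esam, Cd68, Tagln and Des) were chosen after their values were seen. Arrays that share a replicate number were checked for pairing. Over 7 pairs the correlation of deviations from the group means was -0.17 to 0.36, with 5 of 7 over 0.1. Over the 26 other pairs it was -0.51 to 0.41. The labels do not say whether a number marks an embryo, a litter or a day. For that reason the numbers were not taken as pairs in the main fit, and whether such arrays share an origin is not known. Alternatives in scaling, floor, filter, weights, block and left-out arrays were run.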

Additional observations from a re-analysis of the deposited data

Results flagged for a closer look

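On the floored log2 values of 2 probe sets, 1 sinus array stood apart from the other 3 by Dixon's ratio. This is the gap to the nearest value divided by the whole range, and it lay above its 95% critical value for 4 arrays. For Serpinb1a (1416318_at) the ratio was 1, since sinus replicate 2 was at an intensity of 90.1 and the other sinus arrays were tied at the floor. The floor fixes that ratio: on the unfloored log2 values it was 0.463, under the critical value, and all 4 sinus arrays lay under 167.76. For Hes7 (1422950_at) it was 0.837, with sinus replicate 7 at 95.9 and the others at 186 to 212. Such a test marks about 1 group in 20 by chance, and 30 probe sets were examined.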

How the results depend on the processing

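The number of genes called changed with the processing. Against 382 genes called in bladder minus sinus, there were 195 with quantile normalization, 173 with median centring, 235 with no filter, 2668 with array weights and 87 without the arrays titled JS_number. Against 651 in bladder minus urethra, there were 388, 234, 1873 and 178 with quantile normalization, median centring, array weights and without those titles. Against 2 in urethra minus sinus, there were 1 with quantile normalization, median centring or no intensity trend, 7 with the floor at the 40th percentile, 11 with no floor, 4 with no filter, 664 with array weights and 0 without those titles. Against 0 for stage, there were 366 with no floor, 1421 with array weights and 2 without those titles. With the replicate block as a random term the calls numbered 669, 1171 and 58 in bladder minus sinus, bladder minus urethra and urethra minus sinus, and as a fixed term 132, 140 and 0. Leaving out 1 array gave 45 to 658 calls in bladder minus sinus, 96 to 1300 in bladder minus urethra, 0 to 40 in urethra minus sinus and 0 to 3 for stage, the highest of the first 3 without sinus replicate 1. The genes of the 5 with bladder arrays above all sinus arrays numbered 4 without sinus replicate 1 or without the arrays numbered 1, and the number above all urethra arrays stayed at 5. On the probe sets standing for the 5 genes, the bladder minus urethra and bladder minus sinus differences stayed above 0 in 21 of 21 alternatives. Uncalled values near 0 changed sign: bladder minus urethra on the second probe set of Scara5 (-0.31, above 0 in 4 of 21) and of Serpinb1a (-0.04, in 9 of 21), the stage difference of Scara5 (-0.26, above 0 in 5 of 20) and of Aoc3 (0.06, in 15 of 20), and urethra minus sinus of Aoc3 (-0.15, in 6 of 21), of both Gbp2 sets (-0.11, in 4 of 21, and 0.17, in 14 of 21) and of the second Scara5 set (-0.71, in 1 of 21). Of their bladder minus sinus values 172 moved by less than 1 SD and 17 by more; for bladder minus urethra these were 180 and 9. The bladder minus sinus difference of Aoc3 was 2.39 with the floor at the 40th percentile, and that of Pcdh8 was 0.56 with the fixed replicate block and 0.69 with array weights; the causes were not tested. With median centring, bladder minus reference was 1.30 for Scara5 and 1.23 for Pcdh8. Of the tests of called list genes, 529 kept their call and 267 lost it. Signal near the floor limits Serpinb1a and Aoc3 in urethra and sinus.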
